A study of Danio rerio with 53 samples.

Results

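Population M1 of the zebrafish marrow was sequenced from 4 double-transgenic lines, and the 9 libraries of that population are described here out of 53 in the series. The members were chosen by their labels, with earlier results of these data known. In the lines that carry the lckmCherry reporter the labels name M1 early T-committed, with 3 libraries from the lckmCherry-cd79bGFP line (sample numbers 21, 22 and 23) and 3 from the lckmCherry-cd79aGFP line (54, 55 and 56). In the lines that carry the rag2RFP reporter they name it early B-committed, with 2 libraries from the rag2RFP-cd79bGFP line (7 and 8) and 1 from the rag2RFP-cd79aGFP line (36). The 4 groups differ in genotype and share tissue, population number and the absence of a treatment. Cells had been sorted from dissociated marrow out of lymphoid and precursor gates, and total RNA was sequenced from its 3′ ends. A further 11 libraries of thymic B cells, 5 from the lck lines and 6 from the rag2 lines, carry the same reporters in cells with 1 label and served to measure differences between the lines.

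In zebrafish the marrow of the kidney is the adult site of blood formation, and T cell precursors leave it for the thymus. The lck kinase acts just below the T cell receptor, and the lck promoter used for the reporter marks cells of the T lineage as well as some innate lymphocytes. The RAG1 and RAG2 proteins cut DNA to assemble antigen receptor genes in T and B precursors, and the EBF1 and PAX5 factors set and hold the B cell programme.

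The 9 libraries held between 7295854 and 14089636 counts. The number of genes with at least 1 count was lowest in the lck-cd79b line, at 4483, 4277 and 6339 for libraries 21, 22 and 23, against 7662 to 7929 in the lck-cd79a line and 6534, 7055 and 8436 for libraries 7, 8 and 36. Of all entries in the 9 libraries 53.4% were 0. Replicates of 1 line correlated at r = 0.516 to 0.713 across genes over 7 pairs, and no pair agreed within sampling noise. The labels do not state separate animals, pooling, age, batch or the fluorescence of M1, so p-values measure only the spread between libraries. In the main fits that spread was estimated over all 53 libraries of the series, not over the 9 alone. Line, reporter and any batch cannot be told apart. In sorted bulk samples fewer cells of a type and less RNA per cell cannot be told apart either. The gfp transgene stood at 0.077 CPM (counts scaled to the library total) or less in the lck-line M1 libraries, at 0 in libraries 7 and 8 and at 18.5 CPM in library 36, while thymic B libraries held at least 56.4 CPM.

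The lck gene (ENSDARG00000102525), whose promoter drives 1 reporter, checks the labels. Its level was 324, 168, 238, 335, 68.7 and 224 CPM in lck-line libraries 21, 22, 23, 54, 55 and 56, and it had no count in any rag2-line library. RAG2 (ENSDARG00000052121), whose promoter drives the other reporter, stood at 176, 37.2 and 473 CPM in libraries 7, 8 and 36, at 15.9 CPM in library 55 and at 0 in the other lck-line libraries. Both genes thus followed the reporter of the line. For the label early B-committed, the B lineage genes cd79a, blnk, EBF1 and PAX5 all had more than 3 counts in 3 of 3 rag2-line libraries, while cd79b had no count in library 7 and gfp, the reporter of the cd79b promoter in that line, none in libraries 7 and 8.

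For the label early T-committed the markers were mixed. Genes of receptor assembly were near 0 in most lck-line M1 libraries. RAG1 was at 0, 0, 40.9, 0, 47.2 and 1.08 CPM, dntt, the polymerase that adds bases at V(D)J joints, had no count in 6 of 6, and TCF7, an early T lineage factor, had counts in library 23 alone at 65.6 CPM. Other T cell genes were present, with cd8a in 6 of 6 libraries and trbc1, a T cell receptor beta constant region, in 6 of 6. The thymic T stages held cd8a too, and trbc1 had counts in some rag2-line M1 libraries, at the levels given below. The label T Stage I of the thymus carried RAG1 at 1082 ± 425 CPM and RAG2 at 214 ± 90.4 CPM (SD, n = 6), against 14.9 ± 22.7 and 2.64 ± 6.48 CPM in the lck-line M1 libraries (SD, n = 6). Those T Stage I libraries hold 2 sorted populations of the rag2RFP-cd79aGFP line, so line, tissue and population all differ from M1. The groups are therefore called lck-line M1 and rag2-line M1 below.

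**Figure D1:**
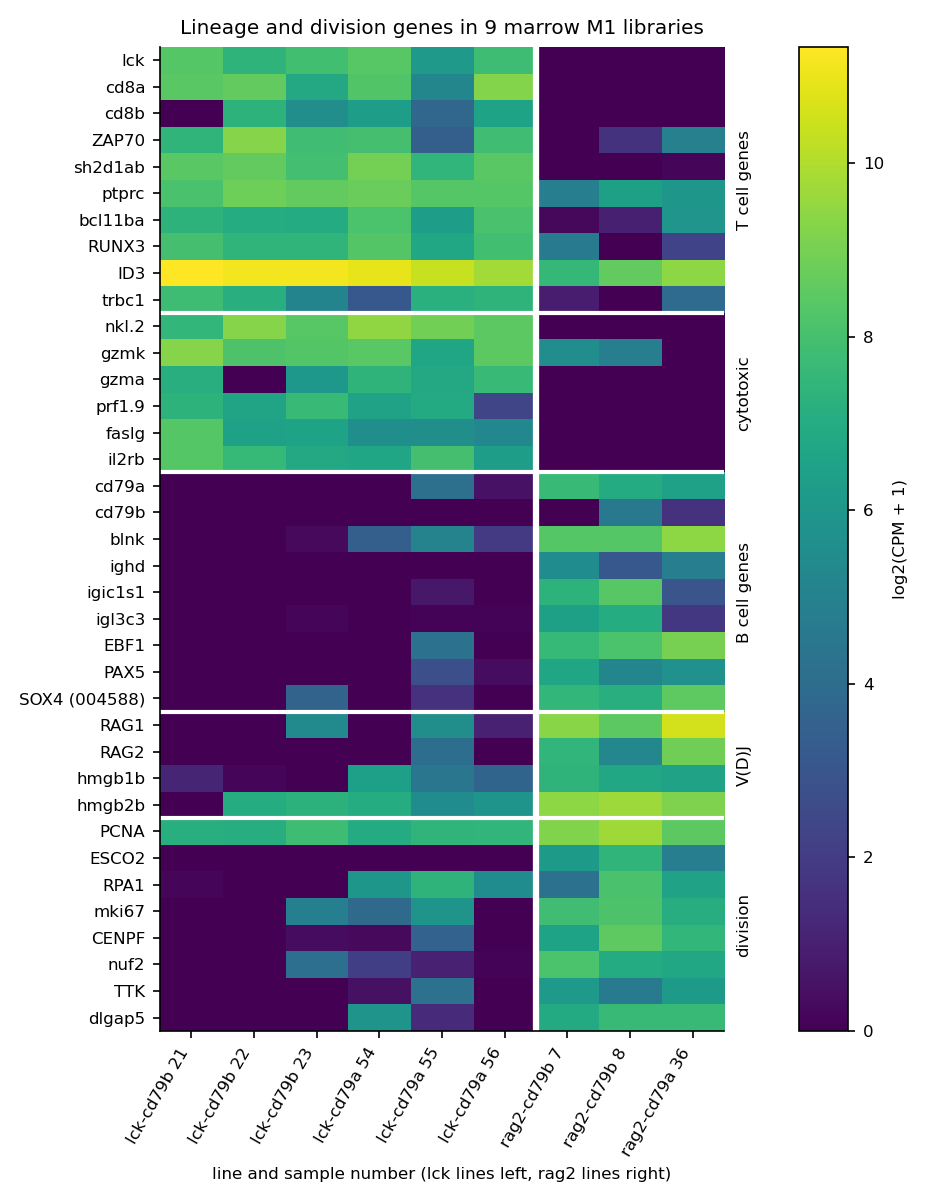
Level of 37 T cell, cytotoxic, B cell, V(D)J and division genes (lines of the map) in the 6 lck-line and 3 rag2-line M1 libraries (columns), as log2(CPM + 1) on the colour scale. Cytotoxic genes such as nkl.2, prf1.9, faslg and il2rb are at 0 in all 3 rag2-line libraries, and cd79a, EBF1 and PAX5 are above 1 CPM in library 55 alone of the lck-line libraries.

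Differences were tested in 2 ways with edgeR over 14423 genes, as the direct contrast of lck-line with rag2-line M1, and as the same contrast after subtracting the lck-line minus rag2-line difference in thymic B cells. A gene was counted as changed only where both passed an adjusted p of 0.05 in the same direction. The direct contrast called 370 genes (2.57%), 85 higher and 285 lower in lck-line M1, and the subtracted contrast 420 (2.91%), 66 higher (0.458%) and 354 lower (2.45%). Of the direct calls 23.0% were higher, a share that became 59.0% with DESeq2, 59.9% in a fit on the 9 libraries alone, 34.8% with the libraries weighted equally or 1 dispersion for all genes, and 36.1% without libraries 21 and 22. Both contrasts called 188 genes (1.3%), of which 44 were higher (0.305%) and 144 lower (0.998%). Each contrast averages the lines on the log scale, so library 36, the only one of its line, weighs as much as libraries 7 and 8 together. A fitted direction can then differ from that of the group means, as for si:ch211-79k12.1, called lower with a mean of 128 CPM in lck-line and 27.4 CPM in rag2-line M1. Subtraction gave no usable standard error, above 100 on the log2 scale, for 7073 genes, which could not be called. The direct contrast likewise gave none for 3694 genes, which it could not call. These included 7 of 23 listed T lineage regulators, 8 of 30 migration and 11 of 44 cytokine receptor and JAK-STAT genes.

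**Figure D2:**
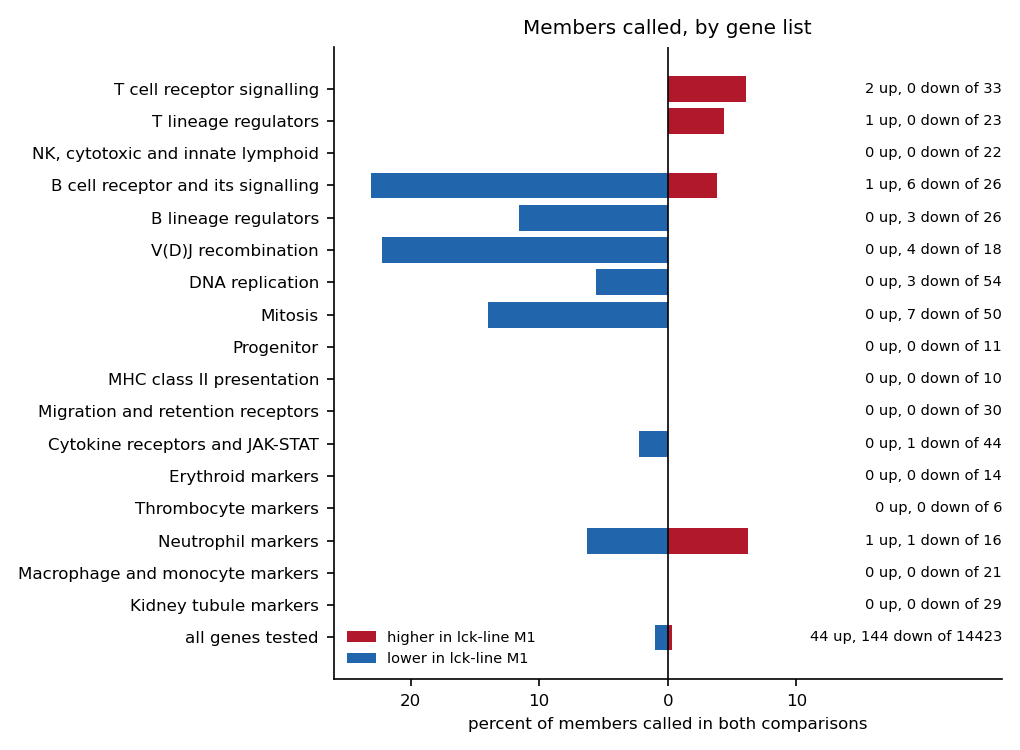
Percent of the members of 17 gene lists, and of all 14423 genes tested, that both contrasts called higher (right) or lower (left) in lck-line M1, with the counts at the right edge. B cell receptor, V(D)J and mitosis genes have the largest shares called lower among the lists, at 23.1%, 22.2% and 14% against 0.998% of all genes. The subtracted contrast gave no usable standard error for 7073 of the 14423 genes. In these 3 lists it gave none for 9 of 26, 6 of 18 and 15 of 50 members, so the shares are not on an equal base.

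Of 33 genes of T cell receptor signalling both contrasts called 2 higher in lck-line M1, cd8a and ptprc, and none lower (0.305% and 0.998% of all genes). The direct contrast called 7 higher (0.589% of all genes) and none lower, adding lck, cd8b, sh2d1ab, PTPN6 and trbc1, of which lck is no independent call because its promoter defines the lines. After subtraction trbc1 was called lower. The libraries did not overlap for 7 members, all higher in lck-line M1 (1.46% of all genes). The median log2 ratio of group means over the list was 2.63, against 0.10 over all genes tested, with a mean under 3 counts set to the level of 3 counts (0.295 CPM in lck-line and 0.276 CPM in rag2-line M1, a floor that covers counting error only). For 10 of the 33 members the subtracted contrast gave no usable standard error.

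The co-receptor gene cd8a (ENSDARG00000044797) held 344, 390.1, 115, 306, 36.2 and 594 CPM in the lck-line libraries and no count in the rag2-line libraries. The groups did not overlap, with library 55 lowest. The difference was at least 1080.1-fold (direct adjusted p 0.00249, subtracted adjusted p 0.00256). Its subtracted call was lost without rag2-line thymic B library 6 or 34. Thymic B cells held 4.3 ± 8.93 CPM of cd8a in the lck lines (SD, n = 5) and 2.45 ± 5.61 CPM in the rag2 lines (SD, n = 6).

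The partner chain cd8b had 0, 160.1, 47.3, 81.3, 12.3 and 95.8 CPM in the lck-line libraries and no count in the rag2-line ones. Library 21 overlapped them at 0. Directly it was at least 240.0-fold higher (adjusted p 0.0285), and the subtracted contrast gave no usable error. The other co-receptor, cd4-1, stood at 161, 0, 68.6, 52, 11.2 and 6.93 CPM against at most 1.45 CPM, which the direct contrast did not call (adjusted p 0.142). Library 22 thus held cd8a and cd8b without a count of cd4-1.

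The common leukocyte phosphatase ptprc (ENSDARG00000071437), known as CD45, was at 273, 454, 388, 433, 329.8 and 324 CPM in lck-line M1 and at 28, 85.7 and 63.9 CPM in rag2-line M1. Every lck-line library lay above every rag2-line one. The log2 fold change was 2.56 (SE 0.55, direct adjusted p 0.00139, subtracted adjusted p 0.00178), and no fit omitting a library lost the call. In thymic B cells ptprc was not called between the lines, at 245 ± 116 CPM (SD, n = 5) and 389 ± 192 CPM (SD, n = 6).

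The lck gene itself was at least 821-fold higher directly (adjusted p 0.0325), but missed the threshold after subtraction (adjusted p 0.0824), with thymic B cells at 31.1 ± 25.9 CPM in the lck lines and 6.11 ± 10.1 CPM in the rag2 lines. Its direct call was lost without library 8 or 54, and without 21 and 22 together. The adaptor gene sh2d1ab, a relative of the SAP adaptor of T and natural killer cells, stood at 344, 392, 246, 498, 174 and 346 CPM against 0, 0 and 0.103 CPM. These groups were widely separated (direct adjusted p 0.0178), and the line contrast in thymic B cells called sh2d1ab as well (adjusted p 0.0109, 13.7 ± 21 CPM against 0.0164 ± 0.0402 CPM).

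The receptor constant region trbc1 (ENSDARG00000091233) had 226, 142, 34.1, 7.59, 144 and 168 CPM in the lck-line and 0.881, 0 and 14.4 CPM in the rag2-line libraries. Library 54 lay below library 36. Directly it was higher, with a log2 fold change of 5.41 (SE 1.3, adjusted p 0.0064), and after subtraction lower, at -5.18 (SE 1.51, adjusted p 0.0356). Thymic B cells of the lck lines held 15.7 ± 15.4 CPM (SD, n = 5) and those of the rag2 lines no count, a difference between the sorts that itself passed (adjusted p 6.07e-10). The T cell content of these sorts was not tested.

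The receptor kinase ZAP70 and the T cell signalling gene THEMIS missed the threshold in both contrasts. ZAP70 had 173, 629.7, 233, 252, 9.91 and 233 CPM against 0, 2.18 and 30.1 CPM (direct adjusted p 0.145). In that gene library 55 overlapped the rag2-line group. THEMIS had counts in 5 of 6 lck-line libraries, up to 299.6 CPM, and in no rag2-line library (direct adjusted p 0.0694). In the fit on the 9 libraries alone both passed, ZAP70 at an adjusted p of 0.00211 and THEMIS at 0.0148.

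Among 23 regulators of the T lineage both contrasts called ID3 higher and none lower, against 0.305% and 0.998% of all genes. For 12 of the 23 the subtracted contrast gave no usable standard error. ID3 (ENSDARG00000054823), an inhibitor of E proteins, stood at 2594, 2245, 2243, 1961, 1342 and 862 CPM in lck-line M1 and at 185, 386 and 684 CPM in rag2-line M1. The groups did not overlap, though library 56 came close to library 36. Its log2 fold change was 1.97 (SE 0.50, direct adjusted p 0.0141, subtracted adjusted p 0.0432). Without rag2-line library 7, or without libraries 21 and 22 together, the direct call was lost, and 12 of 20 subtracted fits omitting a library lost it.

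The factor RUNX3, which acts in CD8 and cytotoxic cells in mammals, had 252, 170.2, 169.8, 317, 108 and 236 CPM against 23.6, 0 and 3.93 CPM (direct adjusted p 0.0773). No library overlapped, yet the test did not pass, though RUNX3 passed in the fit on the 9 libraries alone (adjusted p 0.0269). The T cell identity factor bcl11ba ran from 79.1 to 278 CPM in lck-line M1 against 0.176, 1.01 and 60 CPM (direct adjusted p 0.138). The cytokine receptor il7r ran from 7.99 to 124 CPM and had no count in rag2-line M1 (direct adjusted p 0.0789). GATA3, a T lineage factor, was at 0 in libraries 21 and 22 and between 1.29 and 90.5 CPM in the other lck-line libraries, and was not counted in rag2-line M1.

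In the opposite direction NOTCH1_ENSDARG00000103554, a receptor whose signal starts the T programme in mammals, was lower in lck-line M1 in the direct contrast (1.98% of all genes were called lower). Its values were 0 in libraries 21, 22, 23 and 54, 25.8 CPM in library 55 and 2.92 CPM in library 56, against 44.9, 139 and 97 CPM in libraries 7, 8 and 36. The log2 fold change of -8.04 (SE 2.28, adjusted p 0.0481) missed the threshold after subtraction (adjusted p 0.11). In 8 of 9 direct fits omitting a library, and in the fit on the 9 libraries, 0 of the 23 regulators were called lower, while DESeq2 called 2. Higher direct calls among the 23 numbered 1 in the main fit, 2 in the fit on the 9 libraries and 13 with DESeq2.

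Genes of natural killer, cytotoxic and innate lymphoid cells showed large differences that the test did not call. Of 22 members edgeR called 0 in either contrast. Over all genes 13.8% had an unadjusted direct p under 0.05. The median log2 ratio of means was 3.92, and 19 members had the higher mean in lck-line M1 against 1 with the lower. For 5 members, nkl.2, il2rb, prf1.9, faslg and gzmk, every lck-line library lay above every rag2-line library (1.46% of all genes). For 19 of the 22 the subtracted contrast gave no usable standard error.

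The granulysin-type gene nkl.2 (ENSDARG00000058673), from the NK-lysin family that codes for membrane-permeabilising granule proteins, had 179, 624, 335, 707, 488 and 360.1 CPM in lck-line M1 and no count in rag2-line M1. The lowest lck-line library, 21, still stood far above the limit that a count of 0 allows. Directly the adjusted p was 0.16, with a fitted standard error of 5.22 on the log2 scale. In the fit on the 9 libraries alone it was 3.65e-27, and the other alternatives reached up to 0.35.

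The granzyme gene gzmk, coding for a granule protease, had 617, 286, 313, 349, 104 and 353 CPM against 46.9, 28.3 and 0 CPM (direct adjusted p 0.152). The perforin gene prf1.9 had 158, 98.1, 207, 92.1, 122 and 4.23 CPM against no count (direct adjusted p 0.128). The death ligand gene faslg ran from 37.9 to 329 CPM against no count (direct adjusted p 0.15). In each of the 3 genes the groups were apart, with the smallest lck-line values in libraries 55, 56 and 56.

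The interleukin 2 and 15 receptor chain il2rb had 328, 192, 112, 101, 254 and 78.4 CPM against no count (direct adjusted p 0.0542). The granzyme gzma had counts in 5 of 6 lck-line libraries, 66 to 207 CPM, and none in rag2-line M1 (direct adjusted p 0.0892). With the spread taken from the 9 libraries alone, 6 members passed, nkl.2, gzmk, gzma, prf1.9, il2rb and gzm3.3, all higher in lck-line M1, where 0.681% of the 12477 genes fitted were called higher. DESeq2 called 8 members higher directly and 4 in both contrasts.

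Across the 10 labelled cell types of the series, 3 of these genes were counted mainly in lck-line M1. The nkl.2 mean was 449 ± 196 CPM there (SD, n = 6), at most 2.52 CPM in 8 other types, with T Stage III between them at 27.1 ± 14.2 CPM (SD, n = 3). For prf1.9 the mean was 114 ± 68.4 CPM in lck-line M1 and at most 1.25 CPM elsewhere, and for il2rb 178 ± 98.7 CPM and at most 9.25 CPM. The T cell gene cd8a was ordered differently, with 298 ± 200.1 CPM in lck-line M1 and 641 ± 212 to 1193 ± 289 CPM in the 4 thymic T stages.

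**Figure D3:**
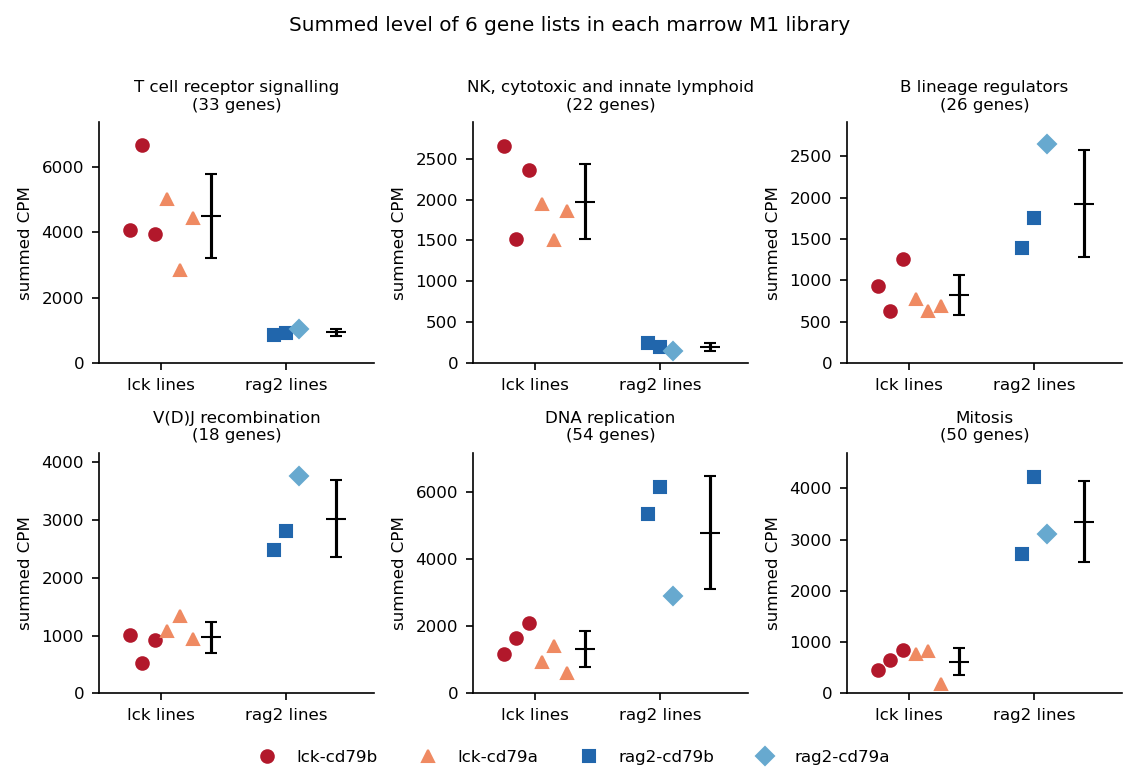
Summed CPM of 6 gene lists in each M1 library, one panel for each list; symbols mark the line, and the bar beside each group is its mean ± SD (n = 6 lck-line, n = 3 rag2-line). The T cell receptor and cytotoxic sums are higher in every lck-line library, and the V(D)J, DNA replication, mitosis and B regulator sums are higher in every rag2-line library.

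Of 26 B cell receptor and signalling genes both contrasts called 6 lower in lck-line M1, cd79a, cd79b, blnk, ighd, igic1s1 and igl3c3, and 1 higher, pik3ap1, against 0.998% and 0.305% of all genes. The heavy chain gene ight, also called lower in both, is not among these 26 genes. Every lck-line library lay below every rag2-line library for 6 members (2.93% of all genes), and the median log2 ratio of means was -1.3. Means were lower for 16 members and higher for 9, and the median fitted log2 fold change of -0.74 became 0.13 without library 7. The heavy and light chain genes belong to families of close copies, and how reads were split among them is not given in the sources used here.

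The receptor chain cd79a (ENSDARG00000037473) had 0, 0, 0, 0, 17.2 and 0.462 CPM in lck-line M1 and 204, 124 and 89.7 CPM in rag2-line M1. Its only lck-line level above 1 CPM was that of library 55. The log2 fold change was -8.81 (SE 1.69, direct adjusted p 0.0029, subtracted adjusted p 0.0173). The other chain, cd79b, had no count in lck-line M1 and 0, 22.9 and 2.07 CPM in rag2-line M1, at least 28.2-fold lower (direct adjusted p 0.022, subtracted adjusted p 0.0434). The cd79b call failed in 6 of 9 direct and 14 of 20 subtracted fits omitting a library.

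The adaptor blnk (ENSDARG00000042722), which links the B cell receptor to its kinases, stood at 0, 0, 0.211, 9.65, 32.5 and 2.77 CPM against 329, 329 and 691 CPM. The groups were far apart, with a log2 fold change of -8.72 (SE 1.18, direct adjusted p 3.02e-05, subtracted adjusted p 0.00106). The heavy chain gene ighd had no count in lck-line M1 and 44.9, 7.64 and 27.7 CPM in rag2-line M1, at least 90.5-fold lower (direct adjusted p 2.74e-11).

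The immunoglobulin light chain gene igic1s1 (ENSDARG00000093272) had 0.646 CPM in library 55, no count in the other lck-line libraries, and 162, 341 and 7.04 CPM in libraries 7, 8 and 36. Library 36 was lowest of the rag2-line group. Its log2 fold change was -9.61 (SE 1.17, direct adjusted p 5.04e-06, subtracted adjusted p 0.00056). The light chain igl3c3 followed the same order, at most 0.105 CPM in lck-line M1 and 85.4, 129.5 and 2.59 CPM in libraries 7, 8 and 36. Transcripts of linc-iglc3 did not separate the groups, at 152 CPM in library 55, 12.1 CPM in library 22 and at most 0.142 CPM in the other lck-line libraries, against 152, 124 and 0 CPM.

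The adaptor pik3ap1, known as BCAP, was called higher although its libraries overlapped. It had 1.93, 0.274, 175, 147, 28.2 and 108 CPM in lck-line M1 and 85.1, 0 and 0 CPM in rag2-line M1 (direct adjusted p 0.0216, subtracted adjusted p 0.0384). The direct call was lost without library 36 or library 23, and the subtracted call in 9 of 20 fits omitting a library and with equal weights or 1 dispersion for all genes.

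Of 26 regulators of the B lineage both contrasts called 3 lower in lck-line M1, EBF1, PAX5 and SOX4_ENSDARG00000004588, and none higher, against 0.998% and 0.305% of all genes. BCL6 was also called lower in both, but the names listed for it matched no gene, so these counts leave it out. The median log2 ratio of the list was -0.49, and 14 members had the lower mean against 10 with the higher. EBF1 (ENSDARG00000099849) had 17.9 CPM in library 55, no count in the other lck-line libraries, and 195, 280.2 and 515 CPM in libraries 7, 8 and 36. The log2 fold change was -10.29 (SE 2.03, direct adjusted p 0.00446, subtracted adjusted p 0.0199).

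PAX5 (ENSDARG00000037383) was counted in libraries 55 and 56 of the lck lines, at 5.89 and 0.308 CPM, and at 102, 36.3 and 51.9 CPM in rag2-line M1. It changed by -8.57 on the log2 scale (SE 0.99, direct adjusted p 7.56e-12, subtracted adjusted p 4.62e-08). SOX4_ENSDARG00000004588, a factor of lymphoid precursors, had 0, 0, 11.2, 0, 2.08 and 0 CPM against 179.5, 136 and 369.5 CPM (log2 fold change -7.23, SE 1.78, direct adjusted p 0.00703, subtracted adjusted p 0.000275). The second copy, SOX4_ENSDARG00000098834, ran from 0 to 167 CPM in lck-line M1 and stood at 224, 233 and 240.1 CPM in rag2-line M1, without a call (direct adjusted p 0.241).

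Of 18 genes of V(D)J recombination both contrasts called 4 lower in lck-line M1, RAG1, RAG2, hmgb1b and hmgb2b, and none higher (0.998% of all genes were called lower). Means were lower for 11 members and higher for 7. Beside the RAG1 values above, rag2-line M1 held 641, 355 and 1519.6 CPM. No library overlapped, and the log2 fold change was -5.90 (SE 1.32, direct adjusted p 0.00861, subtracted adjusted p 0.0133). RAG2, with its values above, changed by -9.80 (SE 1.97, direct adjusted p 0.00304, subtracted adjusted p 0.00998). Since the rag2 promoter drives the reporter by which these lines were chosen, the RAG2 difference is no independent result.

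The DNA-bending protein genes hmgb1b and hmgb2b, whose mammalian relatives assist the RAG proteins, differed less. The hmgb2b gene had 0, 130.1, 155, 128, 45.3 and 57.4 CPM against 676, 814 and 563 CPM (log2 fold change -2.99, SE 0.78, direct adjusted p 0.028, subtracted adjusted p 0.0465). Its call failed in 4 of 9 direct and 14 of 20 subtracted fits omitting a library. The related hmgb1a, at 495 ± 201 CPM in lck-line M1 (SD, n = 6) and 305 ± 37.6 CPM in rag2-line M1 (SD, n = 3), was not called.

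Calls of the B lineage and V(D)J lists depended in part on the 2 lck-line libraries with the fewest genes detected. Without libraries 21 and 22 the direct calls of cd79a, cd79b, EBF1, SOX4_ENSDARG00000004588, RAG1 and RAG2 were lost, while blnk, PAX5, ighd, igic1s1, igl3c3, hmgb1b and hmgb2b kept theirs. Library 23 then stood alone for the lck-cd79b line and, as each contrast averages the lines, weighed as much as all lck-cd79a libraries together. Library 55, with B lineage genes at the levels given above, kept its weight within the lck-cd79a line. The cause of these losses was not tested. In the fit on the 9 libraries alone the direct calls of PAX5, ighd, igl3c3, hmgb1b, hmgb2b, cd79b and RAG1 were lost. Those of blnk, igic1s1, cd79a, EBF1, SOX4_ENSDARG00000004588 and RAG2 held in that fit. Over all genes, 60 of the 188 called in both contrasts were called in it.

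Of 54 DNA replication genes both contrasts called 3 lower, ESCO2, PCNA and RPA1, and of 50 mitosis genes 7 lower, CENPF, SPC25, TTK, anln, bub1bb, dlgap5 and nuf2, with none higher in either list (0.998% of all genes were called lower). The direct contrast called 7 and 11 lower (1.98% of all genes), adding FEN1, GINS1, GINS3 and POLE2 of the replication machinery and PRC1_ENSDARG00000100918, bub1ba, cenpe and kif11 of the spindle and its checkpoint. Means were lower in lck-line M1 for 48 of 54 and 44 of 50 members, with median log2 ratios of -1.72 and -2.2, and every lck-line library lay below every rag2-line library for 12 and 18 of them (2.93% of all genes).

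Summed over the mitosis list, lck-line libraries 21, 22, 23, 54, 55 and 56 held 458, 648, 838, 774, 824 and 186 CPM, and rag2-line libraries 7, 8 and 36 held 2715, 4228 and 3108 CPM. The replication sums were 617 to 2116 CPM against 5349, 6149.8 and 2914 CPM. Both sums separated the groups without overlap, and thymic B cells stood with lck-line M1, at 678 ± 290.4 CPM of mitosis genes in the lck lines (SD, n = 5) and 537 ± 474 CPM in the rag2 lines (SD, n = 6).

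PCNA (ENSDARG00000054155), the sliding clamp of the replication fork, had 141, 132, 227, 125, 171 and 176 CPM in lck-line M1 and 588, 836 and 354 CPM in rag2-line M1. The lck-line libraries were close to each other and all below the rag2-line ones. Its log2 fold change was -1.69 (SE 0.45, direct adjusted p 0.0144, subtracted adjusted p 0.0482). Its direct call was lost without libraries 21 and 22, without library 54 and in the fit on the 9 libraries, and its subtracted call failed in 16 of 20 fits omitting a library. The proliferation marker mki67 had 0, 0, 29.1, 14.1, 58.2 and 0 CPM against 232, 284 and 134 CPM and was not called (direct adjusted p 0.127).

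ESCO2 (ENSDARG00000014685), an acetyltransferase needed for sister chromatid cohesion, had no count in lck-line M1 and 72.3, 169 and 27.6 CPM in rag2-line M1, at least 303-fold lower (direct adjusted p 3.54e-06, subtracted adjusted p 7.72e-10). It was also called between the lines in thymic B cells, where it was higher in the lck lines, at 11.8 ± 18 CPM against 0.0169 ± 0.0414 CPM (adjusted p 0.00169). The centromere protein gene CENPF stood at 0, 0, 0.316, 0.213, 11 and 0 CPM against 93.6, 366 and 183 CPM (log2 fold change -8.19, SE 1.93, direct adjusted p 0.0128, subtracted adjusted p 0.0313). The subtracted calls of CENPF and dlgap5 failed in 8 and 11 of 20 fits omitting a library. Those of the other mitosis genes called in both failed in at most 2. Their direct calls failed in 4 of 9 such fits for SPC25 and in at most 2 for the others.

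The kinetochore gene nuf2 had 0, 0, 16.9, 3.26, 1.08 and 0.077 CPM against 279, 124 and 110.2 CPM (log2 fold change -5.77, SE 1.34, direct adjusted p 0.00555, subtracted adjusted p 0.0186). RPA1, a single-strand DNA binding subunit, was called lower with overlapping libraries, at 0.129, 0 and 0 CPM in the lck-cd79b line and 64, 167 and 44.6 CPM in the lck-cd79a line against 17.7, 271 and 92.7 CPM. Within the lck lines RPA1 was called between lck-cd79a and lck-cd79b M1 (adjusted p 4.27e-08).

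The mitosis calls were sensitive to which lck-line libraries were left out. Without libraries 21 and 22 edgeR called 0 of the 50 mitosis genes directly, against 21 by DESeq2 over all libraries, and the median fitted log2 fold change of the list was then -3.31, against -3.07 with them. In the fit on the 9 libraries alone 2 mitosis and 3 replication genes were called lower, where 0.457% of 12477 genes were. Without library 23 both contrasts called 13 mitosis and 9 replication genes, and without library 22 they called 3 and 3. Omitting lck-cd79a library 54, 55 or 56 left 5, 5 and 4 mitosis genes called in both, and omitting library 21 left 5. Many genes had low counts in libraries 21 and 22, and the part of that in these calls was not tested.

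Beyond the lists, the 12 genes most different in each direction were taken from those called in both contrasts. Besides cd8a, the higher genes were NEDD9, CXCR3, cyth4a, calcoco2, DUSP2, stk17al, LY75, LDHA, arhgef3l, DEF6_ENSDARG00000012247 and VASP. CXCR3 (ENSDARG00000007358), a chemokine receptor that guides activated T and natural killer cells in mammals, had 414, 457, 261, 567, 336 and 351 CPM in lck-line M1 and 0, 0 and 2.07 CPM in rag2-line M1. The groups were far apart in every library, with a log2 fold change of 11.27 (SE 1.63, direct adjusted p 9.33e-08, subtracted adjusted p 1.80e-07). No alternative fit lost the CXCR3 call.

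NEDD9, a docking protein of adhesion and migration, had 133, 209.6, 96.3, 185, 261 and 97.7 CPM against 0.264, 0 and 0 CPM (direct adjusted p 0.00628, subtracted adjusted p 0.0147). Both genes had their highest mean of the 10 cell types in lck-line M1. For CXCR3 it was 398 ± 107 CPM there (SD, n = 6), 189 ± 163 CPM in B Stage II and 29.1 ± 21.6 to 38 ± 23 CPM in the thymic T stages, and for NEDD9 164 ± 66.2 CPM against at most 42.9 ± 32.8 CPM.

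The phosphatase gene DUSP2, which restrains MAP kinase signalling, varied widely among the lck-line libraries, at 31.8, 1644, 1255, 650.5, 317 and 308 CPM, against 1.23, 0 and 13.3 CPM (log2 fold change 7.67, SE 1.97, direct adjusted p 0.0247, subtracted adjusted p 0.0298). The lactate dehydrogenase LDHA had 175, 349, 124, 109, 121 and 53 CPM against 0, 12.2 and 0 CPM (log2 fold change 9.07, SE 1.5, direct adjusted p 3.99e-06). The kinase gene stk17al had 229, 25.9, 122, 339, 33.2 and 282 CPM against 0, 0.588 and 6.73 CPM (log2 fold change 6.79, SE 1.03, direct adjusted p 4.06e-07). None of the 3 genes overlapped between the groups. In the fit on the 9 libraries alone the direct call of DUSP2 was lost (adjusted p 0.507), while those of LDHA and stk17al held.

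The remaining higher genes were cyth4a, coding for an exchange factor of ARF GTPases, calcoco2, an autophagy receptor, LY75, an endocytic receptor, arhgef3l, DEF6_ENSDARG00000012247, an exchange factor in T cell signalling, and VASP, an actin regulator. Their direct adjusted p ran from 0.000336 to 0.0116. In lck-line M1 calcoco2 stood at 171 ± 67.2 CPM (SD, n = 6) and in rag2-line M1 at 0.954 ± 1.5 CPM (SD, n = 3), and LY75 at 51.4 ± 27.2 and 1.26 ± 1.1 CPM. The fit on the 9 libraries alone lost the direct calls of cyth4a, LY75 and VASP (adjusted p 0.0642, 0.808 and 0.753). It kept those of calcoco2, arhgef3l and DEF6_ENSDARG00000012247. The calls of DEF6_ENSDARG00000012247 and VASP were lost without library 36, and the subtracted call of arhgef3l in 12 of 20 fits omitting a library.

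Besides igic1s1, ESCO2 and igl3c3, the lower genes were rbbp8l, PDZRN3, ADGRL3_ENSDARG00000061121, SP6, ATP11A, DUS4L, RBL1, PRDM8 and pogza. Of these 9, rbbp8l, PDZRN3, SP6, DUS4L, PRDM8 and pogza had no count in any lck-line library. The rbbp8l gene (ENSDARG00000087032), named for its likeness to a DNA end resection factor, had 32.2, 94.7 and 193 CPM in libraries 7, 8 and 36, at least 361-fold lower in lck-line M1 (direct adjusted p 2.74e-12, subtracted adjusted p 7.72e-10). PDZRN3, a ubiquitin ligase, had 16.3, 43.4 and 115 CPM, at least 198-fold lower (direct adjusted p 1.03e-06). SP6, a zinc finger factor, had 78.9, 55.6 and 19.4 CPM, at least 174-fold lower (direct adjusted p 5.30e-06). In the fit on the 9 libraries alone, of these 9 genes only rbbp8l kept its direct call (adjusted p 0.0068). The adjusted p of the others there ran from 0.0659 for PDZRN3 to 0.214 for ATP11A.

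For PRDM8, a zinc finger factor, the rag2-line libraries were close to each other, at 34.4, 45.6 and 43.2 CPM, at least 139-fold above lck-line M1 (direct adjusted p 0.00466). DUS4L, a tRNA-modifying enzyme, and pogza, a chromatin gene, were at least 152-fold and 122-fold lower (direct adjusted p 0.0144 and 0.0112). The direct call of DUS4L failed in 5 of 9 fits omitting a library, and the subtracted call of pogza in 11 of 20. The adhesion receptor ADGRL3_ENSDARG00000061121, the phospholipid flippase ATP11A and the retinoblastoma relative RBL1 each had a count in 1 lck-line library, at 0.994, 0.359 and 0.0718 CPM, and means of 55.1 ± 36.7, 47 ± 26.5 and 42.1 ± 25.5 CPM in rag2-line M1 (SD, n = 3). The direct calls of ADGRL3_ENSDARG00000061121, SP6, DUS4L, RBL1, PRDM8 and pogza were lost without libraries 21 and 22.

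Lines were compared in thymic B cells, where the labelled cell type is the same. That contrast called 117 genes (0.811%), 108 higher in the lck lines (0.749%) and 9 lower (0.0624%). Genes detected in these libraries numbered 7893 to 8911 in the lck-cd79a and 6177 to 7064 in the lck-cd79b line. In the rag2-cd79a line they numbered 5885 to 6740, and in the rag2-cd79b line 3804 to 5942. The part of detection in these calls, and in the subtracted contrast, was not tested. HADHA, a subunit of mitochondrial fatty acid oxidation, stood at 72.5 ± 99.6 CPM in the lck lines (SD, n = 5) and 0.154 ± 0.376 CPM in the rag2 lines (SD, n = 6, adjusted p 0.00325), and MAF, a lymphocyte transcription factor, at 48 ± 43.2 and 0.307 ± 0.503 CPM (adjusted p 0.00671). Neither was called directly in M1, where MAF had 58.1 ± 34.7 CPM in the lck lines and 6.9 ± 11.2 CPM in the rag2 lines. Of the 44 genes called higher in M1 1 was also called in the thymic B contrast, and of the 144 lower 5 were.

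**Figure D4:**
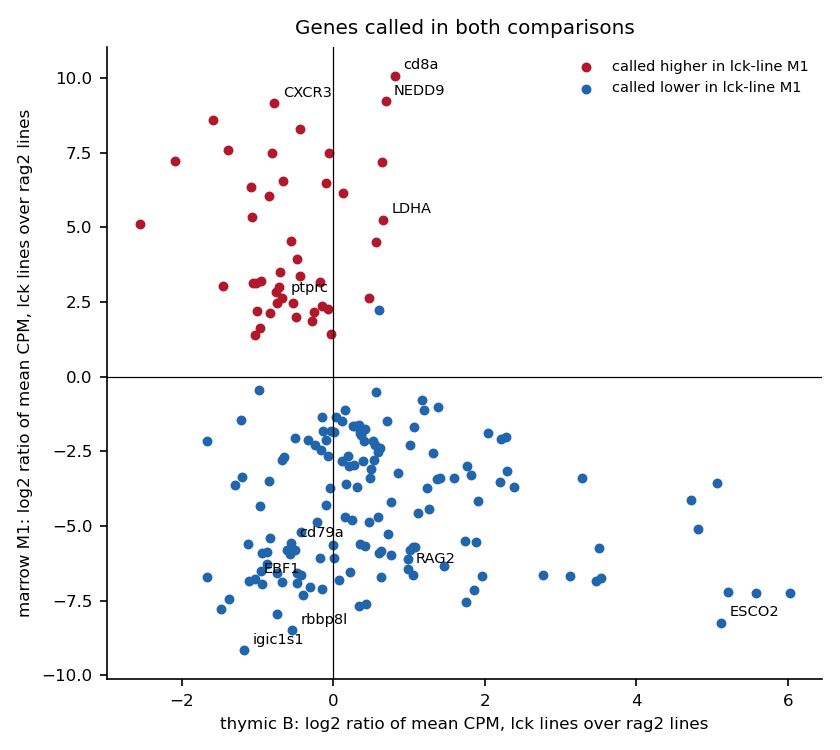
Each point is 1 of the 188 genes called in both contrasts, with the log2 ratio of mean CPM (lck lines over rag2 lines, means under 3 counts set to 3 counts) in thymic B cells on the horizontal axis and in M1 on the vertical axis. The median thymic B ratio is -0.67 for the 44 genes called higher and 0.36 for the 144 called lower, against M1 medians of 3.45 and -4.32; the second contrast subtracts the thymic B ratio, so the calls favour opposite signs.

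The comparison was also made within each GFP line. In the cd79b lines 407 genes were called (2.82%), 101 higher (0.7%) and 306 lower (2.12%), and in the cd79a lines, with library 36 alone on the rag2 side and assumed to vary like the other groups, 30 were called (0.208%), 10 higher (0.0693%) and 20 lower (0.139%), with 6.7% of genes at an unadjusted p under 0.05. The difference between the lines' contrasts passed for 15 genes (0.104%), 8 upward (0.0555%) and 7 downward (0.0485%). A call made in 1 GFP line and not in the other was no tested difference for the remaining genes. For cd8a the log2 fold change was 14.32 (SE 2.90, adjusted p 0.00406) in the cd79b lines and 14.87 (SE 4.14, adjusted p 0.287) in the cd79a lines.

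Within the lck lines, M1 of lck-cd79a and lck-cd79b differed in 188 genes (1.3%), 176 of them higher in lck-cd79a (1.22%) and 12 lower (0.0832%), where 20.1% of genes had an unadjusted p under 0.05. Members of the lists above that were higher in lck-cd79a were PAX5 (adjusted p 0.000625), hmgb1b (0.000746), FEN1 (0.00142), blnk (0.014), CDC20 (0.0263), il6r (0.0263), LMO2 (0.0321), SPC25 (0.0482) and RPA1, and the signalling adaptor DAPP1 was lower (0.026). The hmgb1b levels were 1.29, 0.137 and 0 CPM in libraries 21, 22 and 23 and 82.9, 20.9 and 11.5 CPM in libraries 54, 55 and 56. More genes were detected in every lck-cd79a library than in every lck-cd79b library, and the part of that in these calls was not tested.

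Among 30 genes of migration and retention both contrasts called 0, and edgeR called 1, ITGA4, in the subtracted contrast (lower, adjusted p 0.0104, with 2.45% of all genes called lower there). CXCR3, called higher in both contrasts as given above, was listed under names that matched no gene, so these counts leave it out. The egress receptor gene S1PR4 had 462, 220.3, 363, 564, 131 and 594 CPM in lck-line M1 against 80.4, 0 and 21.1 CPM, and klf2a, which controls egress receptors in mammalian T cells, 139, 103, 126, 143, 74.5 and 92.4 CPM against 30.8, 7.55 and 0.103 CPM. Both separated the groups without passing the test (direct adjusted p 0.412 and 0.125). They were among 3 of the 30 members without overlap, all higher in lck-line M1 (1.46% of all genes). The summed level of the list overlapped between the groups, at 2915 ± 753 CPM in lck-line (SD, n = 6) and 3559 ± 1122 CPM in rag2-line M1 (SD, n = 3). With DESeq2 both contrasts called 3 migration genes higher and 1 lower. Of 11 progenitor and 10 MHC class II presentation genes edgeR called 0 in both contrasts, while DESeq2 called 1 progenitor gene lower and 1 presentation gene higher. The subtracted edgeR contrast gave no usable standard error for 9 of 11 progenitor, 2 of 10 presentation and 18 of 30 migration genes. Those genes could not be called in both. The median log2 ratios of means of the progenitor and presentation genes were 0.09 and 0.65. For the progenitor genes the median fitted log2 fold change had the other sign, at -1.26, and the median fitted log2 fold change of the presentation genes, 0.97, became -0.08 without library 36.

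Of 44 cytokine receptor and JAK-STAT genes both contrasts called only il6r, which was lower (0.998% of all genes were called lower). It had 0, 0, 0, 43.5, 0 and 4.54 CPM in lck-line M1 and 231, 137 and 656 CPM in rag2-line M1 (log2 fold change -9.67, SE 1.65, direct adjusted p 0.000544, subtracted adjusted p 0.00485), and its direct call was lost without libraries 21 and 22. Directly STAT4, which relays interleukin 12 signals, was called higher, as were 0.589% of all genes. It stood at 145, 44.3, 126, 110.2, 105 and 69.7 CPM against 1.59, 34.3 and 0 CPM (adjusted p 0.0442), and missed the threshold after subtraction (0.0621). For 18 of the 44 members the subtracted contrast gave no usable standard error.

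Markers of other marrow cells were present on both sides. Erythroid markers (14 genes) summed to 1386 to 19397 CPM in lck-line M1 and to 2284, 2042 and 10405 CPM in rag2-line M1, and neutrophil markers (16 genes) to 1971 to 6097 CPM and to 949.5, 877 and 3307 CPM. Macrophage markers (21 genes) summed to 643 to 5127 CPM against 895, 2882 and 511 CPM, and thrombocyte markers (6 genes) to 0 to 376 CPM against 0, 1.5 and 48.6 CPM. The sums overlapped between the groups for these 4 lists.

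Kidney tubule markers (29 genes) were higher in every lck-line library, at 461 to 747 CPM against 169, 183 and 389.8 CPM. Of them fxyd2, a sodium pump subunit of the tubule, was called higher in the direct contrast, as were 0.589% of all genes. It stood at 117, 184, 345, 98.5, 91.3 and 202 CPM against 0, 0 and 124 CPM (adjusted p 0.00624). These levels move with the group and with all lists above, and their part in the results was not tested. Both edgeR contrasts called 0 erythroid, thrombocyte, macrophage and kidney markers, where DESeq2 called 0, 1, 3 and 6 higher and 1 kidney marker lower. The subtracted edgeR contrast gave no usable standard error for 9 of 14 erythroid, 5 of 6 thrombocyte, 13 of 21 macrophage and 27 of 29 kidney markers. Those members could not be called in both, so the 0 does not show that the groups were alike. In the neutrophil list il6r, described above, was called lower and srgn higher, against 0.998% and 0.305% of all genes. The srgn gene stood at 1731, 1715, 1554, 2519, 1219 and 1639 CPM against 146, 155 and 639 CPM (log2 fold change 2.39, SE 0.54, direct adjusted p 0.0024, subtracted adjusted p 0.00365). Its product, serglycin, packs granule proteins in neutrophils and in cytotoxic lymphocytes.

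**Figure D5:**
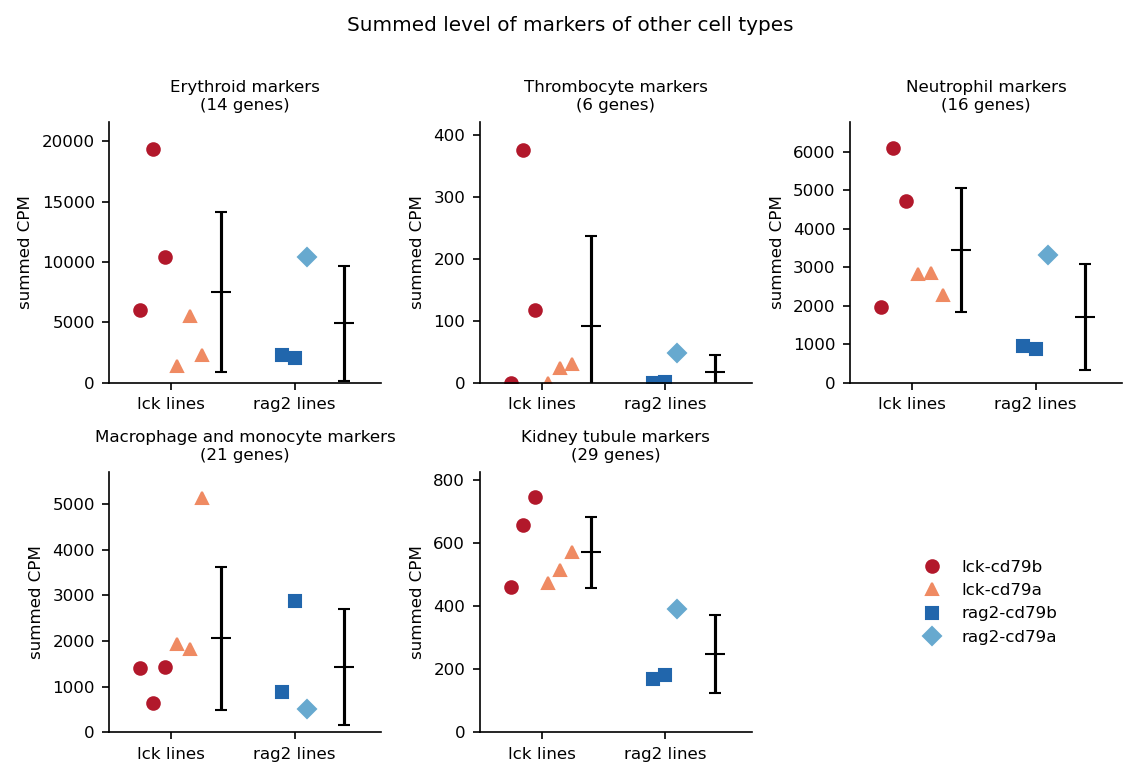
Summed CPM of the markers of 5 other cell types in each M1 library, one panel for each cell type; symbols mark the line, and the bar beside each group is its mean ± SD (n = 6 lck-line, n = 3 rag2-line). Kidney tubule markers are higher in all 6 lck-line libraries, and for the other 4 types the groups overlap, with library 22 highest for erythroid, thrombocyte and neutrophil markers and library 56 for macrophage markers.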

How the data were processed

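The authors deposited raw read counts per gene for all 53 libraries, made with a QuantSeq 3′ forward kit per the labels' protocols. The submitters' processing notes name FastQC 0.11.8, STAR, featureCounts, DESeq2 1.38.3 and the GRCz11 build; settings are not given in the sources used here. The deposited normalized table was not used. Groups came from the labels. The count data held 14424 features, of which the gfp transgene stayed out of the tests.

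Counts were fitted in R 4.3.3 with edgeR 4.0.16 (quasi-likelihood test, TMM scaling, 1 mean for each group of all 53 libraries, a dispersion trend over abundance, Benjamini-Hochberg adjustment over 14423 genes, threshold 0.05). The trend was chosen after tests on simulated data: for the direct contrast over 14423 genes it gave 43 calls with 1 false, and 1 dispersion for all genes gave 90 with 20 false. The simulated counts were drawn with trended dispersions, which favours that choice. With either dispersion most of the genes changed in the simulation were missed, so a gene that was not called may still differ. CPM are counts scaled to a common library total. DESeq2 1.42.0 was an alternative, as were other scaling, a filter of 10 counts in 3 libraries, equal weights, a fit on the 9 libraries and leaving out each library. Depth limits what a 0 shows: 3 counts were the floor of a fold.

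The members and gene lists were chosen with earlier results of these data known. Listed names that matched no gene were left out, and counts of members called cover the matched genes only. Unmatched were 17 of 50 names for T cell receptor signalling and 19 of 42 for the cytotoxic list. The same held for 11 of 38 B cell receptor, 4 of 32 B lineage regulator and 9 of 38 migration names. Genes named beyond the lists were the 12 in each direction (3 for thymic B) with the largest ratio of mean CPM among genes called in both contrasts, with at least 10 CPM on the higher side, no overlap and a symbol that is no clone name.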

Additional observations from a re-analysis of the deposited data

Results flagged for a closer look

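In 9 of 37 sets of 6 lck-line M1 values tested, 1 library lay far from the other 5, by a gap to its neighbour that exceeded Dixon's 95% critical value, which chance passes in about 1 in 20 sets. Library 55 was the high one in 5 genes, with cd79a at 17.2 CPM, RAG2 at 15.9 CPM, igic1s1 at 0.646 CPM, ATP11A at 0.359 CPM and RBL1 at 0.0718 CPM. For 4 of these 5 genes, all but cd79a, the other lck-line libraries were at 0, as they were for ADGRL3_ENSDARG00000061121. In such sets any count passes, RBL1 with 1 read included, so the 1 in 20 does not apply to them. Library 54 was high for VASP at 153 CPM and for ADGRL3_ENSDARG00000061121 at 0.994 CPM. Library 22 was high for the thrombocyte marker sum at 376 CPM, and library 56 for the macrophage marker sum at 5127 CPM. No cause was tested.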

How the results depend on the processing

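Calls were followed across fits for the most different genes, the list members called in both contrasts, the reporter genes and the top thymic B genes. None of these calls reversed its direction, but medians over many genes did: that of the B cell receptor list without library 7 (-0.74 to 0.13), of the MHC class II list without 36 (0.97 to -0.08), of the erythroid list without 22 (1.21 to -0.02) and of all genes without 7 or 8, below. Values under other settings were set beside the main fit for single genes and for counts of calls in each direction. Of these 2053 were the same, 249 lost a call, 3 gained one and 88 moved. For a gene the same means the same side of the threshold, and for a count within 1.5-fold of the main count. DESeq2 called 3559 genes directly, 3728 after subtraction, 2379 in both, 3214 in thymic B cells, 3724 in the cd79b lines, 2085 in the cd79a lines, 2872 for the difference between GFP lines and 3366 between the lck lines. The fit on the 9 libraries called 142, 133, 54, 37 and 35 genes for the direct, cd79b, cd79a, difference and lck-line contrasts. With 1 dispersion for all genes the direct, thymic B, cd79b, cd79a and difference counts were 699, 75, 841, 96 and 32. Without libraries 21 and 22, a choice made after seeing the data like that of 1 dispersion, the direct, subtracted and joint counts were 180, 190 and 121. A filter of 10 counts in 3 libraries gave 305 genes between the lck lines. The causes were not tested.

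Leaving out 1 library gave 242 (without 54) to 578 (without 23) direct calls, and 567 without 36. The subtracted calls ran from 303 to 663 (without 36), with 659 without 23, and the joint calls from 147 to 358 (without 23), with 309 without 36. Thymic B calls ran from 43 (without 33) to 271 (without 6), with 44 without 4, 57 without 34, 61 without 35 and 69 without 19. The cd79b lines gave 265 (without 8) to 653 (without 23), with 267 without 7, the cd79a lines 20 to 37, the difference 6 (without 7) to 60 (without 23), with 27 without 21 and 33 without 22, and the lck lines 117 (without 21) to 372 (without 23). The share of direct calls that were higher was 34.7% without library 8. With constant dispersion 31.0% of subtracted calls were higher, against 15.7%. Over genes above 1 CPM on both sides the median direct log2 fold change was -0.12, from -0.50 without 23 to 0.27 without 8. No paired analysis was possible because sample numbers run on through the series and no groups share one.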

Other observations

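The MHC class II gene mhc2dab differed between the lck lines in both cell types they share, M1 and thymic B. It was between 0 and 2.69 CPM in all 12 lck-cd79a libraries and between 247 and 1542.5 CPM in all 5 lck-cd79b libraries. In the rag2 lines it ran from 0 to 687 CPM. The gene mhc2dhb ran from 0 to 57.7 CPM in the lck-cd79b line and from 0.382 to 1085.6 CPM in the lck-cd79a line. The invariant chain gene cd74a, which serves all class II molecules, was at 1388 CPM or more in all 6 lck-line M1 libraries. Class II genes have close copies, and how reads were split among them is not given in the sources used here.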
